A study of Mus musculus with 18 samples.

Results

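Macrophages that lack the transcription factor NRF2 were compared with wild-type macrophages after heme followed by endotoxin. The comparison holds 8 of the 18 arrays of the series: 5 of Nrf2-/- cells, lettered a to e, and 3 of Nrf2+/+ cells, lettered a to c. The arrays are those whose titles give this genotype and treatment. Both groups were bone marrow derived macrophages of mice aged 8 to 10 weeks, grown in M-CSF at 10 ng/ml for 7 days, and both had heme-albumin at 200 µM for 4 h and then LPS at 10 ng/ml for 4 h. The genotype therefore is the labelled difference, and heme, albumin, LPS and time are shared. Two-colour Agilent arrays set each sample (Cy5) against untreated macrophages (Cy3), whose genotype the sources used here do not give. The strain, sex and the way the Nrf2 allele was made are not given there either. Wild-type cells under LPS alone (3 arrays) and knockout cells under LPS alone (4 arrays) served to ask whether a genotype difference was also seen without heme. The design text calls the samples independent biological replicates, and the labels do not say whether 1 mouse or a pool gave each culture.

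NRF2, encoded by Nfe2l2, is held in the cytosol by KEAP1 and degraded. Electrophiles and oxidants release it, and it then binds antioxidant response elements together with a small MAF protein and switches on genes of glutathione synthesis, thioredoxin recycling, detoxification, NADPH supply and iron handling. Heme is oxidised by heme oxygenase to biliverdin, carbon monoxide and iron, and its gene Hmox1 is controlled by NRF2 and by the heme-sensing repressor BACH1. In macrophages, which take up dying red cells, these genes meet the program that LPS starts through TLR4, with NF-kB target genes first and genes driven by autocrine interferon beta after them.

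Each value is the log2 ratio of a sample to the reference, averaged over the probes of a gene, and a difference is the knockout mean minus the wild-type mean with its standard error (SE) from limma. A gene was called at a limma p under 0.05 after Benjamini-Hochberg adjustment over all 22485 genes measured. Between 17.9% and 48.8% of the features of the 8 arrays were listed at exactly 0, and what a listed 0 stands for is not given. The highest shares were those of knockout array a (48.8%), wild-type array a (46.4%) and wild-type array c (41.3%). Among the called genes 1.64% of the values were 0. Arrays of 1 group correlated at 0.635 to 0.798 in wild type and at 0.669 to 0.863 in the knockout, and arrays of different groups at 0.522 to 0.800. The number of arrays limits the precision of every value.

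Nfe2l2 itself was listed at 0 on all 5 knockout arrays and read 0.13, 1.0 and 0.80 on wild-type arrays a, b and c. The groups do not overlap, and the difference was -0.64 ± 0.17 (limma adjusted p = 0.0456). Under LPS alone Nfe2l2 was also listed at 0 on every knockout array and read -0.59, -0.45 and 0.16 on wild-type arrays a to c. What a listed 0 stands for is not given, so these values do not give the knockout level. The gene could not be tested with zeros as missing or with the filter on zeros. The call was lost without wild-type array b or c or any 1 knockout array, when the adjusted p reached 0.219, and with the array letter as a block (adjusted p = 0.0739). Whether its probe lies in the deleted stretch is not known, so it checks the labels only in part.

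Under heme and LPS the knockout had lower levels of antioxidant and detoxification genes and higher levels of the genes of interferon beta, the interleukin-12 subunit p40 and inducible nitric oxide synthase. Limma called 479 genes higher in the knockout (2.13% of those tested) and 710 lower (3.16%). The median difference was 1.18 among the higher genes and -0.97 among the lower ones, against 0.00 over all genes. At least 4-fold differences were found for 86 of the higher and 97 of the lower genes, and at least 8-fold differences for 26 and 32. The 5 knockout arrays lay wholly above the 3 wild-type arrays for 395 of the 479 higher genes and wholly below them for 637 of the 710 lower genes, where 3.23% of all genes lay wholly above and 4.56% wholly below. In the letter pairs a, b and c taken singly, 477 of the 479 and 695 of the 710 genes had the same direction in all 3 pairs. The calls were made from these same arrays, so this agreement is no independent replication. The share of all genes with 1 direction in all 3 pairs was not counted. With only these 3 pairs fitted and the letter as a block, 0 genes were called (smallest adjusted p = 0.171), while 1297 genes were higher and 1481 lower at an unadjusted p under 0.05. A fit to the 8 arrays alone, with fewer arrays to estimate the spread from than the 18 used here, called 93 higher and 224 lower. In that fit 65 of the 115 called genes named here lost their calls, among them Hmox1, Srxn1, Il12b, Cebpa, Cxcl9, Bnip3, Dll1 and Lhx2. The counts were 292 and 506 without wild-type array c, 310 and 565 without knockout array d, and 216 and 448 without knockout arrays d and e, which have no wild-type array of their letter. Of the 115 called genes named here 28 lost their calls without arrays d and e; beside those stated with their values, these are Tnfsf10, Tirap, Dnajb4, Bag3, Kdm3a, Gys1, S100a8, Blnk, Slc39a1 and Tyms.

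Under LPS alone hardly any gene was called. The labels of these arrays name no albumin, which the heme arrays had as the carrier. Limma called 0 genes higher (0%) and 1 lower (0.00445%) in the knockout there, and 269 and 288 genes passed an unadjusted p under 0.05. The 1 gene was Prm1, a sperm protamine gene named here after its values were seen, with a difference of -2.56 under LPS and -0.36 under heme and LPS. The 710 genes that were lower under heme and LPS had a median difference of -0.09 under LPS alone, with quartiles at -0.22 and 0.05, and 7 of them were at least 2-fold lower there. The 479 higher genes had a median of 0.14 under LPS alone, with quartiles at -0.01 and 0.29, and 5 were at least 2-fold higher. The difference between the 2 genotype effects was itself tested as an interaction: 54 genes (0.24%) had a higher and 159 (0.707%) a lower knockout-minus-wild-type difference with heme than without. Of the 479 higher genes 53 passed this test, and of the 710 lower genes 158 did. With 1 array left out the interaction called 34 to 123 genes higher and 101 to 210 lower. The ends of these ranges were reached without wild-type LPS array b (34 and 101), knockout heme array b (123) and knockout heme array a (210).

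**Figure D1:**
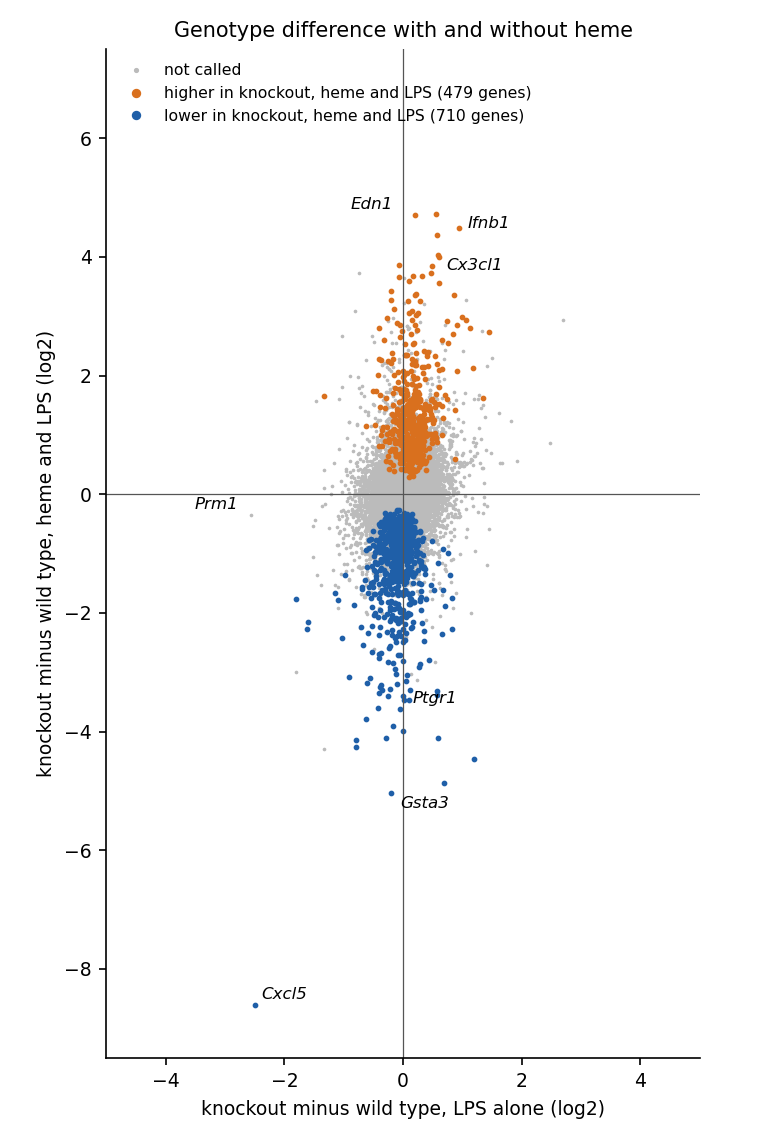
Knockout-minus-wild-type difference (log2) under heme and LPS (vertical axis) against that under LPS alone (horizontal axis), 1 point per gene; orange and blue points are the 479 genes called higher and the 710 called lower under heme and LPS, grey points the rest. The cloud is tall and narrow, since the called genes have median differences of 0.14 and -0.09 under LPS alone; Cxcl5 is the lowest point at -8.61, and Prm1 is the gene called under LPS alone.

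Transcripts of 3 enzyme subunits of glutathione synthesis, Gclc, Gss and Gclm, were lower in the knockout. Gclc, the catalytic subunit of glutamate-cysteine ligase, read 4.95, 3.35 and 4.52 on wild-type arrays a to c and 1.72, 1.15, 1.11, 0.94 and 0.24 on knockout arrays a to e. Every knockout array lay below every wild-type array, and the difference was -3.24 ± 0.43 (limma adjusted p = 0.000342). Gss, glutathione synthetase, which adds the glycine, read 3.12, 2.55 and 3.03 in wild type and 0.07, -0.22, 0.26, 0.24 and 0.01 in the knockout. The knockout arrays were thus close to the reference, with a difference of -2.83 ± 0.13 (limma adjusted p = 2.07e-08), which is 7.12-fold. Gclm, the regulatory subunit, differed less, by -1.56 ± 0.36 (limma adjusted p = 0.0202), and knockout array a at 3.64 lay above wild-type array b at 3.57. Its call was lost without wild-type array a or c (highest adjusted p 0.0956), without knockout arrays d and e, and with the letter as a block. The cystine importer gene Slc7a11 read 7.66, 8.05 and 9.09 in wild type and 1.34, 1.7, 5.33, 5.69 and 5.77 in the knockout. The groups did not overlap, but the knockout arrays spread widely, and the difference of -4.30 ± 1.25 missed the threshold (limma adjusted p = 0.0652). It passed under 7 of the 19 alternatives other than the 3 pairs. With the letter as a block, 1 of these, it was -5.15 (limma adjusted p = 0.0325). Over the 18 measured genes of this list 3 were lower and 1 higher, with a median of -0.31. The higher one was Gpx1, the main cytosolic glutathione peroxidase, at 0.50 ± 0.08, a call that quantile normalization ended (adjusted p = 0.0939).

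The thioredoxin system had 4 of 11 members lower and 0 higher, with a median of -0.36. Peroxiredoxin 1, which reduces hydrogen peroxide and is encoded by Prdx1, read 3.58, 2.94 and 3.27 in wild type and 1.92, 0.65, 0.77, 1.19 and 0.70 in the knockout, a difference of -2.22 ± 0.24. Srxn1, the sulfiredoxin that restores overoxidised peroxiredoxins, read 4.70, 3.73 and 4.07 against 2.93, 1.81, 1.11, 2.15 and 2.07, a difference of -2.15 ± 0.34 (limma adjusted p = 0.00134). In both genes the knockout arrays stayed above the reference while lying below all wild-type arrays. Txnrd1, thioredoxin reductase, fell by 1.46 on the log2 scale with an SE of 0.31 (limma adjusted p = 0.0108) and was no longer called without wild-type array a (adjusted p = 0.051) or without knockout arrays d and e (adjusted p = 0.0554). The mitochondrial peroxiredoxin gene Prdx3 fell by 0.48. Thioredoxin itself, Txn1, was at -0.42 ± 0.26 and was not called.

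Enzymes that reduce quinones, aldehydes and carbonyls were lower in part. Ptgr1, a reductase of reactive alkenals, read 3.04, 2.97 and 3.00 on the wild-type arrays and -0.40, -0.07, -0.57, -0.75 and -0.55 on the knockout arrays. That is 11.1-fold, or -3.47 ± 0.11 (limma adjusted p = 3.44e-10), and under LPS alone the difference was 0.01. Nqo1, the quinone reductase often used as an NRF2 readout, read 3.57, 2.98 and 2.98 against 0.00, 1.15, 0.18, 0.71 and 0.27, a difference of -2.72 ± 0.29 (limma adjusted p = 5.6e-05). The aldo-keto reductase gene Akr1b8 went from a wild-type mean of 1.51 to a knockout mean of -0.91, the carbonyl reductase gene Cbr3 differed by -1.85 ± 0.30, and the aldehyde oxidase gene Aox1 by -2.86 ± 0.50. Nqo1 was listed at 0 on knockout array a and Aox1 on knockout arrays a and c, so the size of either fall is uncertain. In all, 6 of the 20 measured members were lower and 0 higher (median -0.33). Osgin1, an oxidative stress induced growth inhibitor, was at -0.98 ± 0.36 (limma adjusted p = 0.162) and missed the threshold, with knockout array a (1.67) among the wild-type values of 1.87, 1.58 and 1.89.

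Glutathione transferases and the multidrug resistance pumps that export conjugates had the largest share of lower genes of any list examined, 13 of 25, with 0 higher and a median of -0.92. Gsta3 read 5.55, 3.92 and 4.47 in wild type and 0.00, 0.00, -0.15, -1.39 and -0.45 in the knockout. This was the largest fall of all genes measured after that of Cxcl5, 32.9-fold or -5.04 ± 0.39 (limma adjusted p = 4.47e-06). Abcc4, an efflux pump, differed by -2.85 ± 0.28, Gsta1 by -2.59 ± 0.39, the microsomal transferase gene Mgst2 by -2.36 ± 0.42 and Gstm4 by -1.48 ± 0.23. Gsta3 was listed at 0 on knockout array a and Gsta1 on knockout arrays b and d, so the size of either fall is uncertain. Gsta2 stood at 2.05, 0.91 and 1.97 in wild type and was listed at 0 on all 5 knockout arrays; its call was lost without the LPS-treated arrays of letter a. The other 7 lower members ranged from Gstp1 (-1.39) to Gstm3 (-0.92). Probes of the alpha, mu and pi transferases can share targets, so single members of these families are uncertain. The list was not uniform: Gstt1 (1.48 ± 0.43, limma adjusted p = 0.0648) and Mgst1 (1.07 ± 0.33, adjusted p = 0.0822) had higher means in the knockout and missed the threshold, and both passed it without knockout array b.

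**Figure D2:**
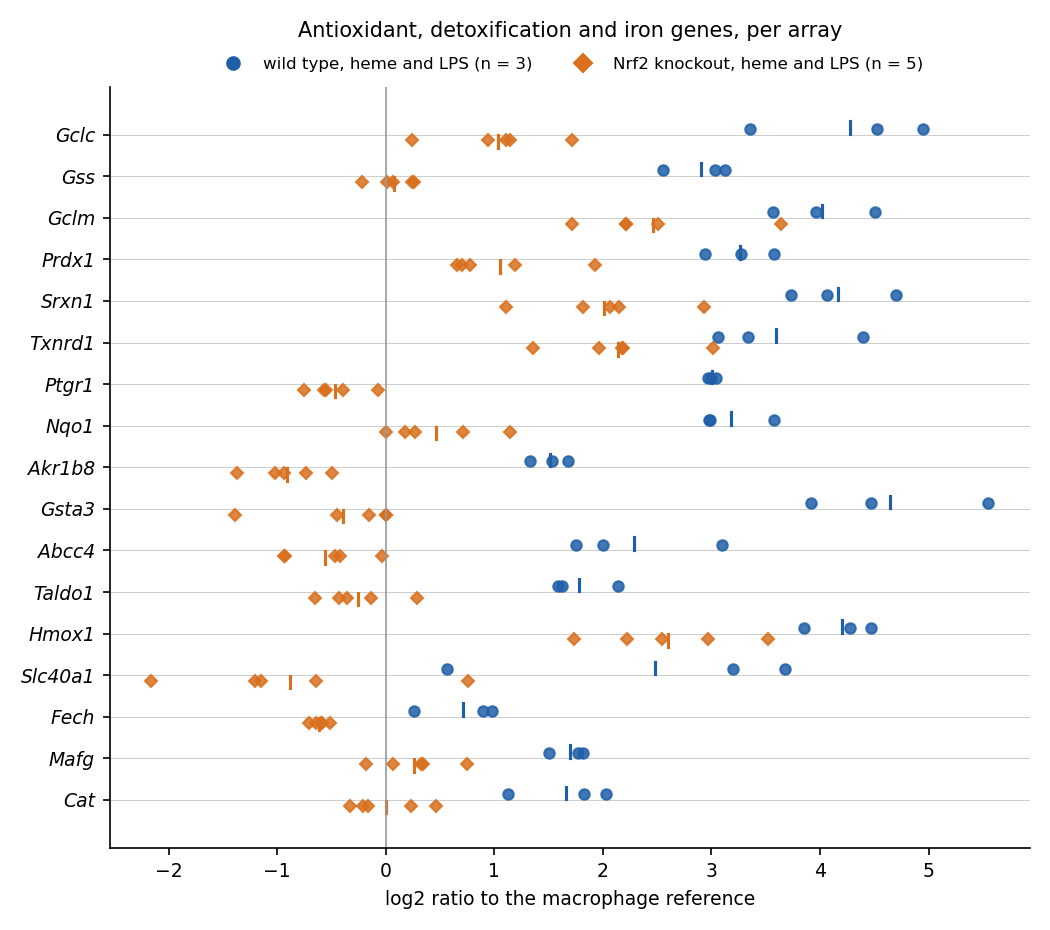
Log2 ratio to the reference (horizontal axis) of 17 antioxidant, detoxification, heme and iron genes on the 3 wild-type arrays (blue circles) and the 5 knockout arrays (orange diamonds) under heme and LPS; short vertical lines are group means. The wild-type values of Ptgr1 lie between 2.97 and 3.04 and all its knockout values below 0; the groups overlap for Gclm and Slc40a1 and for no other gene shown.

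Transcripts of 3 pentose phosphate enzymes were lower; the oxidative steps of this pathway supply NADPH, the reductant of these enzymes. Taldo1, transaldolase, read 2.14, 1.59 and 1.63 against 0.29, -0.13, -0.43, -0.36 and -0.65, a difference of -2.04 ± 0.18. Pgd, 6-phosphogluconate dehydrogenase, which makes NADPH, fell by 0.94 and Tkt, transketolase, by 0.56. These were the 3 called genes of 15 in the list. Malic enzyme 1, Me1, another source of NADPH and a known NRF2 target, did not follow: it read 5.27, 3.07 and 2.99 in wild type and 4.69, 3.94, 3.71, 4.81 and 4.44 in the knockout (0.55 ± 0.42, limma adjusted p = 0.600). Wild-type array a was its highest array, and without that array Me1 was higher in the knockout by 1.29 (limma adjusted p = 0.0114).

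Heme and iron genes split. Hmox1 read 4.47, 3.85 and 4.28 in wild type and 3.52, 2.97, 2.23, 2.54 and 1.73 in the knockout, which lies below wild type on every array and above the reference on every array. The difference was -1.60 ± 0.31 (limma adjusted p = 0.00588). The iron exporter gene Slc40a1, ferroportin, read 0.56, 3.68 and 3.19 against -2.16, 0.76, -0.64, -1.14 and -1.21, so that 1 wild-type array lay inside the knockout range. Its difference of -3.36 ± 0.75 (limma adjusted p = 0.0158) lost the call without wild-type array b or c (adjusted p of up to 0.0937) and without knockout arrays d and e. Ferrochelatase, which inserts iron into heme and is encoded by Fech, fell by 1.32, and the heme transporter gene Slc48a1 fell by 0.81, a call lost without knockout arrays d and e (adjusted p = 0.0819). Hmox2, the constitutive heme oxygenase, rose by 0.82 ± 0.12, and the ferroxidase gene Cp rose by 1.60 ± 0.37, a call lost without wild-type array b or c or knockout array d or e (adjusted p of up to 0.116). Biliverdin reductase B, Blvrb, was at -0.30 ± 0.18 and Spic, a transcription factor of iron-recycling macrophages, at -1.30 ± 0.55, both not called. Spic passed under 4 of the 19 alternatives other than the 3 pairs, and Blvrb under 0. Over the 35 members 6 were lower and 2 higher with a median of 0.04; the higher members numbered 1 without wild-type array b or c or knockout array d or e and 4 without knockout array b, and 3 were lower without knockout arrays d and e.

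Among the partners and regulators of NRF2, 1 of 19 was lower and 1 higher. Mafg, which encodes a small MAF partner, read 1.81, 1.5 and 1.77 against 0.74, 0.33, 0.35, 0.07 and -0.19 (-1.44 ± 0.20). The ubiquitin ligase gene Trim21, which is also interferon-induced, read 0.86, -0.18 and -0.12 against 2.37, 1.72, 2.10, 2.62 and 2.49 (2.08 ± 0.22). The autophagy receptor gene Sqstm1 was at -0.79 ± 0.25 (limma adjusted p = 0.0933) and was not called. The lower members of the list numbered 2 without wild-type array b or knockout array a or b, and the higher members 2 without wild-type array a. In the list of 14 genes of NADPH oxidase, superoxide dismutases and catalase only Cat, catalase, was called, at -1.66 ± 0.22.

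The core of the antioxidant response element, TGACNNNGC on either strand, was looked for in the RefSeq promoter windows (GRCm38.p6) from 250 bases before to 50 bases after each transcription start. Of 17162 measured genes with a window 2579 held it (15%), of 575 lower genes 101 (17.6%) and of 379 higher genes 61 (16.1%). These shares were not tested against each other, and elements farther from the start were not searched. The stretches below are those of the 6 lower genes with the largest fall whose window holds the core before the start, and of Prdx1, added after its values were seen. They are printed 5′ to 3′ in gene orientation with the core in capitals; in Gsta3, Ppp1r3g and Slc6a9 the core reads as searched, in the other stretches it lies on the other strand.
Gsta3, chr1:21240438-21240498, + strand: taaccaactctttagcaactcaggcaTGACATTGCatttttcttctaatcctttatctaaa
Tbcel, chr9:42472236-42472296, - strand: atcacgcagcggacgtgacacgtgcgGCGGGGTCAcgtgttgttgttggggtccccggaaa
Rabgap1l, chr1:160793036-160793096, - strand: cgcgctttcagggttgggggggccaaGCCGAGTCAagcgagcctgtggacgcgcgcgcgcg
Abcc4, chr14:118706210-118706270, - strand: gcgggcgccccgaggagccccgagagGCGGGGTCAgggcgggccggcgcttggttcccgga
Ppp1r3g, chr13:35967658-35967718, + strand: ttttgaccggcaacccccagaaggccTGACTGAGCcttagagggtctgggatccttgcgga
Slc6a9, chr4:117849278-117849338, + strand: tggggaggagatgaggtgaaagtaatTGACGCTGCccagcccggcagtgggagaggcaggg
Prdx1, chr4:116685440-116685500, + strand: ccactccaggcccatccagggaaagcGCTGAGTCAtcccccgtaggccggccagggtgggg
In Prdx1 the centre of the core lies 129 bases before the start, in Gsta3 117 and in Abcc4 21. Tbcel, a tubulin-binding cofactor relative, differed by -3.91 ± 0.23 between the genotypes, the RAB GTPase-activating protein gene Rabgap1l by -2.94 ± 0.29 and the glycine transporter gene Slc6a9 by -2.34 ± 0.35. Ppp1r3g, a glycogen-targeting phosphatase subunit, was listed at 0 on all knockout arrays and on wild-type array a and read 4.2 and 4.24 on wild-type arrays b and c. Its call (-2.81 ± 0.67, limma adjusted p = 0.0238) was lost without wild-type array b or c or knockout array d (adjusted p of up to 0.135), without knockout arrays d and e, and with the letter as a block.

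The largest fall of all genes measured was that of a neutrophil chemokine. Cxcl5, a ligand of the receptor CXCR2, read 8.73, 11.11 and 10.77 in wild type and 0.00, 1.1, 1.03, 3.01 and 2.83 in the knockout. The difference was -8.61 ± 0.89 (limma adjusted p = 4.72e-05), or 391-fold. Knockout array a is listed at 0 and the difference ran from -9.49 to -7.27 over the alternatives other than the 3 pairs, so the fold is uncertain. Under LPS alone the difference was -2.49, which was not called. Ppbp, the platelet basic protein chemokine, read 4.78, 3.83 and 3.95 against 0.00, -0.92, 0.26, -0.25 and 0.57 (-4.25 ± 0.30). It too was listed at 0 on knockout array a. Pf4, platelet factor 4, read 1.5, 1.38 and 1.79 against -0.56, 0.17, -0.00, 0.04 and 0.61 (-1.50 ± 0.21). These were the 3 lower genes among 24 chemokines, and by the RefSeq table (GRCm38.p6) they are consecutive protein-coding genes, in the order Cxcl5, Ppbp, Pf4. The CXCR2 ligand genes that follow were not called: Cxcl3 at -0.85 ± 1.42, Cxcl1 at -0.04 ± 0.47 and Cxcl2 at -0.27 ± 0.51. Wild-type means of these genes were 8.15, 8.56 and 9.04 and knockout means 7.29, 8.52 and 8.77, so they were raised over the reference in both genotypes, and each of the 3 differences turned positive without some 1 array (Cxcl1 up to 0.12, Cxcl2 up to 0.12, Cxcl3 up to 0.092). On the other side of Cxcl5, Rassf6, a RAS-association gene, was at -1.11 ± 0.35 (limma adjusted p = 0.0932) and was not called either; it was called without wild-type array a (-1.62, limma adjusted p = 0.00626), without the LPS-treated arrays of letter a (-1.64) and with array weights (-1.41). Beyond Cxcl2, Mthfd2l, a mitochondrial folate enzyme gene, was just past the threshold (-0.62 ± 0.17, limma adjusted p = 0.0492), a call lost without wild-type array a or c or any 1 of knockout arrays a to d (adjusted p up to 0.202), with the letter as a block and with median centring. The neighbours are named here after the values of the 3 chemokine genes were seen.

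Other large falls were in genes of varied roles. Fam13a, a RhoGAP-domain gene listed at 0 on knockout array a, differed by -4.87 ± 0.61, and Rnf183, a ubiquitin ligase gene, by -4.46 ± 0.51. Il1f9, which encodes interleukin-36 gamma, read 3.01, 4.51 and 5.17 in wild type and 0.00, 0.38, 0.00, 0.09 and 0.00 in the knockout (-4.14 ± 0.44). The endothelin receptor gene Ednrb read 3.61, 3.6 and 5.38 against -0.35, 0.44, 0.16, 0.09 and 0.05 (-4.12 ± 0.42). The knockout arrays of Ednrb were near the reference level. Il1f9 was listed at 0 on knockout arrays a, c and e, so its knockout level and the size of its fall are uncertain. Lypd6b, a Ly6-domain gene listed at 0 on knockout array d, differed by -4.00 ± 0.35 and the cell cycle inhibitor gene Cdkn2b by -3.79 ± 0.51. Pyruvate carboxylase, Pcx, differed by -3.63 ± 0.17 and Prkar2b, a regulatory subunit of protein kinase A, by -3.61 ± 0.42. These 8 genes were named from the called genes without overlap between the groups, so their lack of overlap follows from that choice. Leaving out any 1 array ended none of their calls.

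The largest rises were those of Lipg and Edn1. Edn1 encodes endothelin 1, a ligand of the receptor that Ednrb encodes, and read 1.23, 3.84 and 3.43 in wild type and 6.75, 6.99, 7.68, 8.21 and 8.13 in the knockout. The difference was 4.71 ± 0.49 (limma adjusted p = 5.49e-05), or 26.2-fold, and its 10 probes gave 4.28 to 5.48. Under LPS alone the genotypes differed by 0.21. Lipg, which encodes endothelial lipase, was listed at 0 on all 3 wild-type arrays and read 4.90, 2.50, 4.81, 5.87 and 5.57 in the knockout; because of the listed zeros the size of this rise is uncertain. Pla1a, a phosphatidylserine phospholipase gene, rose by 4.37 ± 0.58, the LIM homeobox gene Lhx2 by 3.87 ± 0.73 and the Notch ligand gene Dll1 by 3.73 ± 0.63. Urah, a urate pathway hydrolase gene, rose by 3.68 ± 0.64, the serpin gene Serpina3f by 3.59 ± 0.60 and the deubiquitinase gene Otud1 by 3.56 ± 0.50. Gpr34, a lysophosphatidylserine receptor gene, stood below the reference in both genotypes, at -6.38, -4.27 and -3.83 in wild type and at -1.73, -1.21, -0.74, -2.13 and -1.21 in the knockout. Themis2, a signalling adaptor of myeloid and B cells, read -1.70, -2.74 and -2.29 against 1.25, 0.03, 1.64, 1.47 and 0.71 (3.27 ± 0.31).

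Pro-inflammatory cytokines and enzymes had 8 of 26 members higher, Edn1 among them, and 1 lower, Il1f9, with a median of 1.0. Il12b, the subunit shared by interleukin-12 and interleukin-23, read 2.09, 6.0 and 6.07 in wild type and 7.09, 8.30, 9.09, 9.46 and 9.60 in the knockout. All knockout arrays lay above wild type, and the difference was 3.99 ± 0.76 (limma adjusted p = 0.00569); it lost its call without knockout arrays d and e. Nos2, inducible nitric oxide synthase, read 2.13, 1.30 and 1.7 against 5.28, 3.71, 4.85, 6.01 and 4.98 (3.26 ± 0.37, limma adjusted p = 0.000102). Tnfsf10, the death ligand TRAIL, was higher by 3.68 ± 0.85 and lost its call without wild-type array b or c or knockout array d (adjusted p of up to 0.117). The classical early cytokines were not called. Tnf read 4.66, 4.25 and 4.67 in wild type and 4.46, 4.53, 4.89, 4.94 and 4.61 in the knockout (0.16 ± 0.19), Il1b was at 0.38 ± 0.24 and Il6 at 1.30 ± 0.51, with limma adjusted p = 0.777, 0.484 and 0.206. Under quantile normalization Tnf and Il1b turned to -0.30 and -0.26, and without wild-type array c Il6 was higher by 1.95 (limma adjusted p = 0.0443). The list had 5 higher members without wild-type array b and 4 without knockout arrays d and e.

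Among chemokines 4 of 24 were higher, beside the 3 lower ones, and the list median was 0.73. Cx3cl1, fractalkine, read 1.0, 0.83 and 1.35 in wild type and 4.00, 4.75, 5.10, 5.73 and 5.84 in the knockout (4.03 ± 0.35, limma adjusted p = 1.32e-05). Cxcl9, an interferon-induced T cell chemokine, read 2.83, 1.27 and 1.55 against 5.80, 3.76, 4.66, 6.02 and 6.03 (3.37 ± 0.54), and Ccl9 rose by 1.33 ± 0.16. Cxcl10, also interferon-induced, read 9.86, 4.18 and 4.2 in wild type and 8.79, 7.39, 9.26, 10.08 and 9.73 in the knockout. Wild-type array a thus stood above 4 of the 5 knockout arrays while arrays b and c lay below all of them, and the difference of 2.97 ± 1.11 was not called (limma adjusted p = 0.170). Without wild-type array a it was 4.86 (limma adjusted p = 0.00243). The monocyte chemokine gene Ccl7 split in the same way, with 3.09, -2.73 and -3.59 in wild type against 3.31, 1.62, 2.46, 3.18 and 2.67, and a difference of 3.73 ± 1.12 (limma adjusted p = 0.0754) that was 5.81 without wild-type array a (limma adjusted p = 0.000119). Without that array 8 chemokines were higher.

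**Figure D3:**
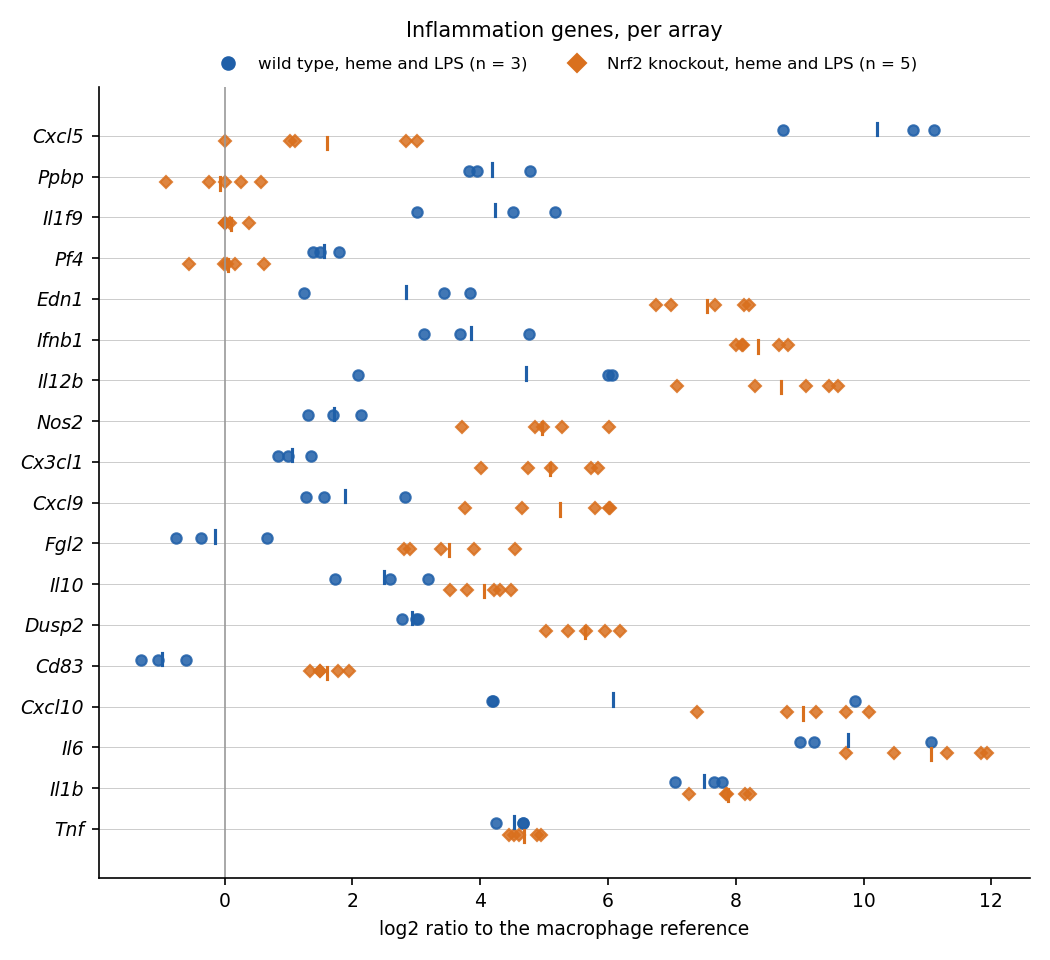
Log2 ratio to the reference (horizontal axis) of 18 genes of inflammation on the 3 wild-type arrays (blue circles) and the 5 knockout arrays (orange diamonds) under heme and LPS; short vertical lines are group means. Cxcl5 and Edn1 differ between the genotypes in opposite directions with no overlap, and Tnf and Il1b overlap. For Cxcl10 wild-type array a at 9.86 stands apart from arrays b and c at 4.18 and 4.2.

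Interferon beta was higher in the knockout, and with it 8 of the 42 measured genes of the type I interferon list, which holds Ifnb1 and Trim21. Ifnb1 read 4.76, 3.12 and 3.68 in wild type and 8.10, 8.11, 8.00, 8.68 and 8.82 in the knockout, a difference of 4.49 ± 0.66 (limma adjusted p = 0.000848), or 22.4-fold. The call held whichever 1 array was left out and was lost under quantile normalization (adjusted p = 0.0582). Of these 42 genes 41 had a higher mean in the knockout and 0 were called lower, and the median was 1.52 against -0.03 under LPS alone. The called genes also include Iigp1 (3.36 ± 0.91), Gbp5 (2.76 ± 0.65) and Ifit3 (2.08 ± 0.56), all antiviral or antibacterial effectors, and the transcription factor gene Irf1 (2.25 ± 0.50). Probes of the guanylate-binding protein and IFIT families can share targets. Each of these 4 lost its call without wild-type array b or c and without knockout arrays d and e, and the adjusted p reached 0.219 when 1 array was left out. Iigp1, Gbp5 and Ifit3 also lost it without knockout array d or e alone, Iigp1 and Ifit3 without knockout array a or c, and Ifit3 with the letter as a block (adjusted p = 0.0656). Cmpk2 (3.22 ± 0.91, limma adjusted p = 0.0573) and Ifit2 (2.83 ± 0.94, adjusted p = 0.110) missed the threshold. Of the 19 alternatives other than the 3 pairs, Cmpk2 passed under 8 and Ifit2 under 4.

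The interferon list varied widely between arrays of 1 genotype. Its median ratio was 1.59, -0.66 and -0.07 on wild-type arrays a to c and 2.51, 0.81, 1.85, 2.70 and 2.41 on knockout arrays a to e. Wild-type array a thus lay above knockout array b, while within each letter the knockout was higher: the median knockout-minus-wild-type difference was 0.68 in pair a, 1.37 in pair b and 1.64 in pair c, with 38, 38 and 40 of the 42 genes higher. Without wild-type array a 28 members were called higher, without knockout array b 24, and 26 when every array of letter a that had LPS was left out. Without wild-type array b or c 2 were called, without knockout array a 5, without knockout array d 3, without knockout array e 4, and without knockout arrays d and e 2. The array of letter b was the lowest of its genotype in both genotypes, and the labels do not say what a letter stands for.

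**Figure D4:**
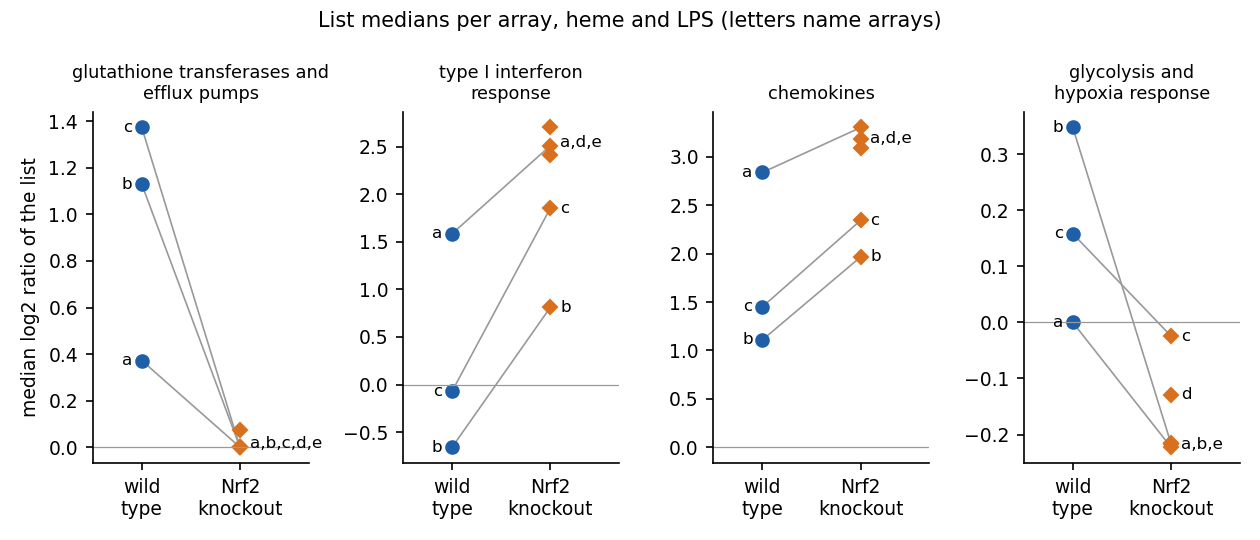
Median log2 ratio over the members of 4 gene lists on each array under heme and LPS, wild type at left (blue circles) and knockout at right (orange diamonds), with 1 vertical scale per list; letters name the arrays and grey lines join arrays of 1 letter. The interferon median of wild-type array a (1.59) exceeds that of knockout array b (0.81), while all 3 letter pairs rise; the medians of the glutathione transferases and pumps fall from 0.37 to 1.37 in wild type to 0.00 to 0.08 in the knockout.

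Genes of LPS sensing and of feedback moved in part. Of 24 genes of the LPS receptor and its signalling 5 were higher and 2 lower (median 0.17). Tlr4, the LPS receptor, fell by 1.13, from -0.36, -0.19 and -0.48 in wild type to -0.87, -1.89, -1.59, -1.43 and -1.58, while Tlr2, the receptor of bacterial lipoproteins, rose by 1.42 ± 0.24, the kinase gene Map3k8 by 1.76 ± 0.28 and the adaptor gene Tirap by 0.81 ± 0.16. The higher members numbered 3 without wild-type array c or any 1 of knockout arrays c, d and e, and 2 without knockout arrays d and e. Of 28 genes of the NF-kB pathway and its feedback 2 were higher, with a median of 0.70: the MAP kinase phosphatase gene Dusp2, at 2.78, 3.00 and 3.02 against 5.65, 5.03, 5.37, 5.96 and 6.19 (2.71 ± 0.22), and the TNF-induced gene Tnfaip2 (1.52 ± 0.13). This count was 7 without knockout array b, 4 without wild-type array a and 7 under quantile normalization. Anti-inflammatory and alternative activation genes had 4 of 26 members higher and 0 lower (median 0.60), 2 without wild-type array b or without knockout arrays d and e. Il10, the main anti-inflammatory cytokine, read 3.18, 1.73 and 2.59 against 3.79, 3.52, 4.31, 4.49 and 4.21 (1.57 ± 0.32, limma adjusted p = 0.00882), a call lost without wild-type array b (adjusted p = 0.0544) and without knockout arrays d and e. Fgl2, a prothrombinase with immunosuppressive functions, read 0.67, -0.77 and -0.37 against 3.39, 2.80, 2.91, 3.90 and 4.54 (3.67 ± 0.48). The transcription factor gene Maf stood below the reference in both groups and was 1.72 ± 0.19 higher in the knockout, with 0.57 and 2.86 by its 2 probes.

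Surface molecules of antigen presentation and phagocytosis were examined next. Among 15 genes of co-stimulation and maturation 4 were higher and 0 lower (median 1.07), and 2 were higher without wild-type array b or c or knockout array c or d. Cd83, a maturation marker, read -1.31, -0.61 and -1.04 in wild type and 1.34, 1.49, 1.94, 1.49 and 1.77 in the knockout, which puts the genotypes on opposite sides of the reference (2.60 ± 0.19, limma adjusted p = 2.87e-06). Cd80, the CD28 ligand, rose by 1.42 ± 0.23. Of 21 genes of MHC class I presentation 3 were higher (median 0.46): the immunoproteasome genes Psmb9 (1.5 ± 0.35) and Psme2 (1.19 ± 0.25) and H2-M3 (0.59 ± 0.11). The peptide transporter gene Tap1 (1.59 ± 0.46, limma adjusted p = 0.0617) was not called but passed under 5 of the 19 alternatives other than the 3 pairs. Psmb9 lost its call without wild-type array b or c or knockout array d or e (adjusted p up to 0.0981), Psme2 without wild-type array b (0.0672), and both without knockout arrays d and e. The list count was 8 without knockout array b and 1 without wild-type array b. Of 13 genes of MHC class II presentation 0 were called, with a median of 0.10. Among 30 scavenger receptors and efferocytosis genes 5 were higher and 2 lower (median 0.20), and 4 of the 5 encode receptors for IgG: Fcgr1 (3.09 ± 0.68), Fcgr4 (1.99 ± 0.39), Fcgr2b (1.45 ± 0.28) and Fcgr3 (1.22 ± 0.28). The fifth was the bacterial scavenger receptor gene Marco (2.73 ± 0.72). Marco and Fcgr1 lost their calls without wild-type array b or c and Fcgr3 without wild-type array a, when the adjusted p reached 0.192, and all 3 without knockout arrays d and e, and Marco also without knockout array c, d or e and with the letter as a block. Fcgr4 lost its call when the LPS-treated arrays of letter a were left out (adjusted p = 0.0849). In the list, 3 members were higher without wild-type array c, and 1 was lower without wild-type array b or c or any 1 of knockout arrays a to d.

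Transcription factors of macrophages shifted in opposite directions. Cebpa, a factor of myeloid differentiation, read -0.66, 1.85 and 1.69 in wild type and -2.51, -1.22, -1.46, -2.56 and -2.92 in the knockout (-3.09 ± 0.55, limma adjusted p = 0.00347). Its relative Cebpd, induced in inflammation, read 0.75, 0.52 and 0.65 against 2.55, 2.35, 3.08, 2.70 and 2.59 (2.01 ± 0.20, limma adjusted p = 3.18e-05). Neither gene overlapped between the groups. In the list of macrophage identity and myeloid factors 7 of 28 genes were higher and 1 lower (median 0.52), with 4 higher without wild-type array b, 3 without wild-type array c, 3 without knockout arrays d and e, and 2 lower without wild-type array a. Nr1h3, the oxysterol receptor LXR alpha, rose by 1.86 ± 0.25, from -1.40, -0.83 and -0.57 to 0.13, 0.81, 1.26, 0.98 and 1.44. In the list of LXR targets and lipid handling 4 of 24 genes were higher and 5 lower (median 0.37). The cholesterol exporter gene Abcg1, an LXR target, stood far below the reference in both groups and was higher in the knockout by 1.95 ± 0.37, and Mylip, an LXR target that degrades the LDL receptor, was lower (-1.54 ± 0.26). The fatty acid receptor gene Ppard was lower too (-2.29 ± 0.35). Abcg1 lost its call under quantile normalization (adjusted p of up to 0.0764 over all settings but the 3 pairs).

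Part of the glycolysis and hypoxia genes were lower in the knockout. Of 54 measured members 12 were lower and 0 higher, with a median of -0.40 and 38 members below 0. Bnip3, a hypoxia-induced mitophagy receptor, read 0.22, 1.16 and 1.53 in wild type and -0.41, -0.20, -0.64, -0.39 and -1.07 in the knockout (-1.51 ± 0.24, limma adjusted p = 0.00146). Pgm1, phosphoglucomutase, read 0.08, 0.52 and 0.39 against -0.66, -0.96, -1.13, -1.07 and -1.17 (-1.33 ± 0.17), and the lactate exporter gene Slc16a3 read 1.51, 1.43 and 1.46 against 0.04, 0.78, 0.34, 0.73 and 0.58 (-0.97 ± 0.18). None of the 3 overlapped between the groups, from which a lower knockout value within pairs a, b and c follows. They were named among the largest called differences of the list, and 4.56% of all genes lay wholly below wild type. The glucose transporter gene Slc2a1 (-1.11 ± 0.23), the histone demethylase gene Kdm3a (-1.11 ± 0.21), glycogen synthase 1, Gys1 (-0.94 ± 0.21), and phosphoglycerate kinase, Pgk1 (-0.89 ± 0.16), were lower as well. Slc2a1 lost its call without wild-type array a (adjusted p = 0.0585) and Gys1 without wild-type array c (adjusted p = 0.0928). Adrenomedullin, Adm, a vasodilator peptide gene, was at -2.41 ± 0.74 (limma adjusted p = 0.0816) and was not called. It passed under 5 of the 19 alternatives other than the 3 pairs. The list had 8 lower members without wild-type array c and 8 without knockout arrays d and e. The median within-letter difference was -0.10 in pair a, -0.44 in pair b and -0.37 in pair c.

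Few genes of stress and housekeeping programs were called. Of 39 genes of the integrated and ER stress response 0 were called, with 31 below 0 and a median of -0.36. In the heat shock list 2 of 19 were lower, the HSP40 gene Dnajb4 (-1.95 ± 0.43) and the co-chaperone gene Bag3 (-0.83 ± 0.21). Neither kept its call without wild-type array a (adjusted p of up to 0.142), when 0 members were called, and the count was 1 without wild-type array b or any 1 of knockout arrays c, d and e. Of 35 proteasome and autophagy genes 3 were lower, the proteasome ATPase genes Psmc2 (-0.99 ± 0.17) and Psmc1 (-0.64 ± 0.12) and Gabarapl2 (-0.38 ± 0.06), and 31 lay below 0. No gene of the respiratory chain (0 of 44), of cholesterol synthesis and uptake (0 of 27) or of the lysosome (0 of 27) was called, with medians of -0.02, 0.05 and 0.01. The cell cycle list had a median of 0.34 with 29 of 38 members above 0, but its median within letters was -0.12 in pair a, where 14 members were above 0, against 0.87 in pair b (38 members) and 0.96 in pair c (35 members). In it 2 members were called higher, Ccnd3 (1.17 ± 0.23) and Tyms (1.1 ± 0.27, a call lost without wild-type array b or c or knockout array d or e), with 4 without wild-type array a and 1 without wild-type array c or knockout array d or e. In the metallothionein and zinc list 1 of 12 was higher, the zinc transporter gene Slc39a1 (0.88 ± 0.23), and 0 without wild-type array a or b or any 1 of knockout arrays a, c, d and e or with the letter as a block. In the list of arginine, itaconate and tryptophan enzymes Nos2 alone was higher, of 15. Of 29 apoptosis and p53 genes 4 were higher and 2 lower, with 2 higher without wild-type array b or c or knockout array c and 1 lower without wild-type array a or any 1 of knockout arrays b to e. The death receptor gene Tnfrsf10b fell by 1.45, from 3.15, 2.39 and 2.83 to 1.7, 1.41, 1.21, 1.23 and 1.17, and the survival gene Mcl1 rose by 0.87 ± 0.15.

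**Figure D5:**
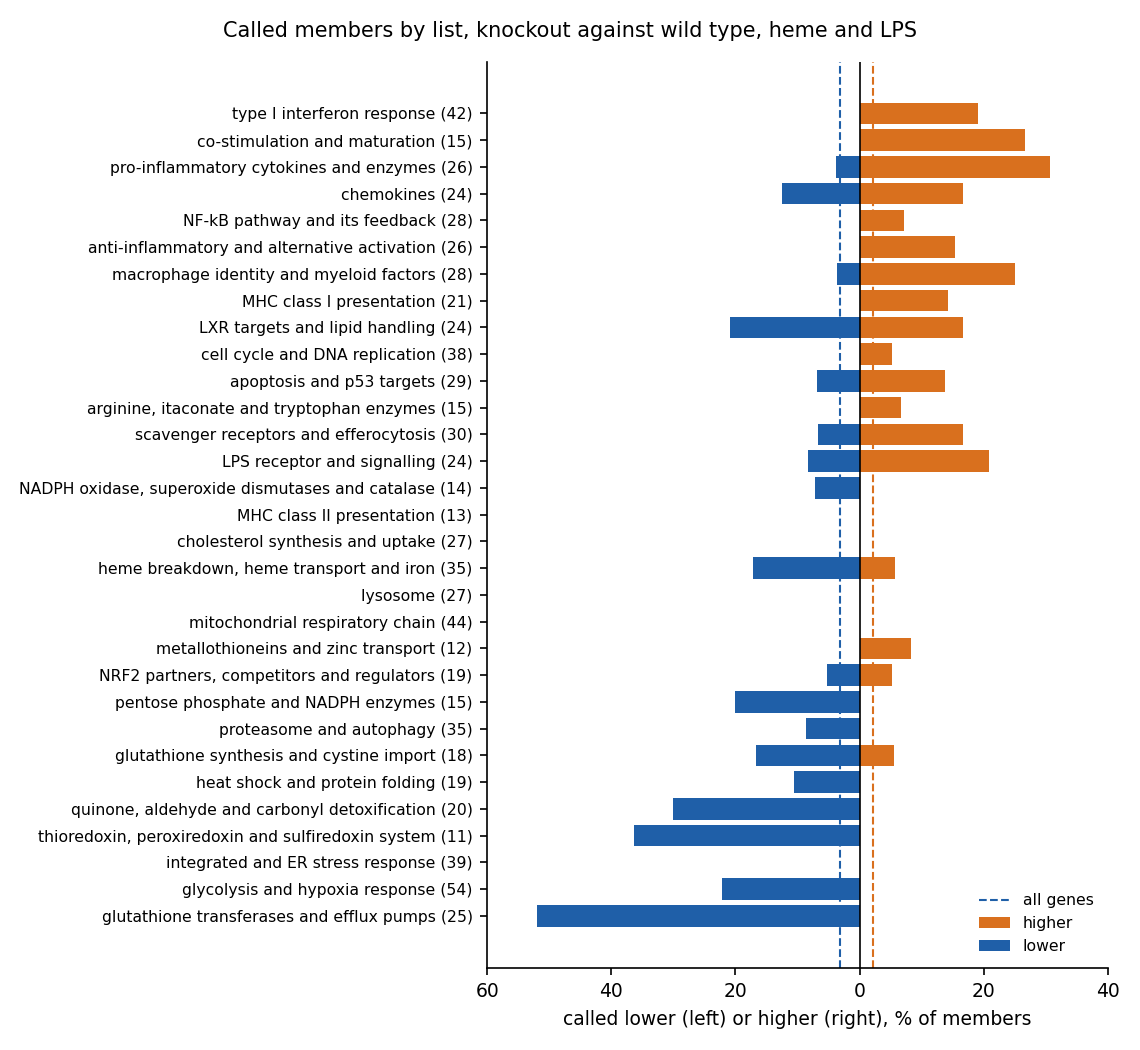
Share of the measured members of each of 31 gene lists called lower (blue, to the left) or higher (orange, to the right) in the knockout under heme and LPS, in percent, with the number of measured members in parentheses and lists ordered by median difference; dashed lines mark the shares among all genes (3.16% lower and 2.13% higher). The glutathione transferases and pumps reach 52.0% lower, and the cytokines and enzymes 30.8% higher.

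The 9 measured macrophage markers, Csf1r, Adgre1 and Cd68 among them, were not listed at 0 on any of the 8 arrays. Of these 1 was called, Fcgr1. The values are ratios to a macrophage reference, so they show neither the presence nor the level of a marker. For markers of other cells a measured ratio near 0 likewise shows equality with the reference, not absence, and what a listed 0 stands for is not given. Of 15 neutrophil markers 1 was lower, S100a8, at 2.66, 4.14 and 3.70 against 2.35, 1.81, 1.27, 1.57 and 0.75 (-1.95 ± 0.44); the call was lost without wild-type array b or c and with the letter as a block. Of 10 B cell markers 1 was higher, Blnk (1.44 ± 0.37), a call lost without any 1 of the 3 wild-type arrays or of knockout arrays b to e, and Ms4a1 was among the 2 B cell markers listed at 0 on all 8 arrays. Markers of mast cells and basophils (10), T and NK cells (11), stromal (12), dendritic (11) and erythroid cells (9) held 0 called genes. The stromal median was 0.00, 0.00 and -0.02 on the wild-type arrays and 0.01, 0.13, 0.12, 0.65 and 1.80 on knockout arrays a to e, so that arrays d and e stood above the rest; the part of these markers in the differences above was not tested. In bulk samples fewer cells of a type and less RNA per cell cannot be told apart.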

How the data were processed

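The submitters' processing notes name Agilent Feature Extraction 10.5.1.1; the sources used here give neither the background and dye correction nor the genome build. The authors deposited 1 table of 44397 features by 18 arrays, whose values have the form and range of log10 ratios of Cy5 to Cy3, a scale inferred from the values, since no source states it. They were put on the log2 scale, and the 33026 features with 1 gene symbol were averaged to 22485 genes; 11371 features without a symbol were left out. Limma 3.58.1 in R 4.3.3 (lmFit, eBayes) was fitted to all 18 arrays in 5 groups, so that the groups share 1 estimate of the spread, with the contrasts of genotype under heme and LPS, under LPS alone, and their difference. P-values were two-sided and adjusted over all genes by Benjamini-Hochberg, and the fit was tested on simulated data. Arrays of the same letter deviated together from their group means (correlations of 0.533, 0.228 and 0.237), so a fit with the letter as a block was an alternative; the labels do not say what the letter marks. Alternatives changed the normalization, the treatment of zeros, the probes, the weights and the arrays used.

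The comparison, the gene lists and the named genes were chosen with earlier results of these data known. Named were genes fixed by name, the 12 largest falls and rises among called genes with no overlap, a proper symbol and a value other than 0 in each group, up to 6 called and 3 not called members a list, and the 6 largest interactions each way; genes outside this rule are given as chosen after their values were seen, as were Slc6a9, Rabgap1l, Ppp1r3g, the promoter stretch of Prdx1, Gstp1, Gstm3, Pgk1, Prm1 and the chemokine neighbours. Of the list symbols 883 matched by symbol and 8 by synonym, and 48 were not analysed here. RefSeq tables (GRCm38.p6) gave gene order and promoter windows. Figures were drawn with matplotlib 3.10.9 in Python 3.11.15.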

Additional observations from a re-analysis of the deposited data

Results flagged for a closer look

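The genotype difference under heme and LPS departed from that under LPS alone for 43 of the genes named above, by the limma interaction test (adjusted p from 5.42e-08 to 0.0442). Over all genes this test called 0.24% higher and 0.707% lower. Many genes were named for large interactions or for large differences on the same heme arrays, so the 43 partly follow from that choice. The values in parentheses are the interaction, the knockout-minus-wild-type difference with heme minus that without, on the log2 scale. Among the antioxidant, detoxification and iron genes it was negative for Nqo1 (-2.67), Gclc (-2.85), Gss (-2.58), Prdx1 (-1.70), Ptgr1 (-3.48), Akr1b8 (-2.29), Gsta3 (-4.84), Abcc4 (-2.68), Mgst2 (-3.02), Gstp1 (-1.29), Taldo1 (-1.86), Fech (-1.39) and Cat (-1.81), and positive for Hmox2 (0.78) and Trim21 (2.07). Among the cytokine, chemokine and signalling genes it was negative for Cxcl5 (-6.11), Ppbp (-3.46) and Il1f9 (-3.34), and positive for Nos2 (2.96), Cx3cl1 (3.44), Ccl9 (1.32), Dusp2 (2.57), Tnfaip2 (0.97), Fgl2 (3.74), Cd83 (2.92) and Edn1 (4.50). Among transcription and lipid genes it was positive for Maf (1.47), Cebpd (2.43), Nr1h3 (1.78) and Lipg (4.18) and negative for Mylip (-2.01). Of the other genes with large changes, the value was negative for Fam13a (-5.56), Rnf183 (-5.66), Ednrb (-4.70), Lypd6b (-4.00), Tbcel (-3.74), Pcx (-3.58), Prkar2b (-3.19), Rabgap1l (-2.80) and Slc6a9 (-2.39), and positive for Gpr34 (3.62) and Themis2 (3.47). Prm1 stood apart in that its positive value (2.21) came from a lower knockout level under LPS alone.

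Single knockout arrays stood far from the other 4 for 10 of the named genes, of which 115 were called and 23 were not. The measure was the ratio of the gap to the nearest array to the whole range of the 5 arrays, with Dixon's limit at 0.71. Chance alone passes that limit in about 1 in 20 groups, so the count lies close to that rate. Knockout array a was the lowest array for Maf (-2.44), Cd80 (-0.49), Gabarapl2 (-0.17), Adm (1.26), Mcl1 (-0.51) and Blnk (-2.57). Knockout array b was the highest for Il1f9 (0.38) and for Kdm3a (0.000899), and the lowest for Tap1 (-0.29). Knockout array e was the lowest for Rassf6 (-0.38), a gene listed at 0 on 3 of the other 4.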

How the results depend on the processing

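With the letter as a replicate block over all arrays 411 genes were higher and 659 lower under heme and LPS, and 0 were lower under LPS alone; of the 115 called genes in the text 8 lost their calls. With the block and only letters a to c, 0 were higher and 0 lower. A fit to only the 8 arrays, with the spread estimated from them alone, called 93 and 224, and 65 of the 115 lost their calls. Array weights gave 979 and 1145, with 336 and 543 interactions. Without knockout arrays d and e, an alternative chosen after seeing the data, 216 were higher, 448 lower and 32 interactions higher. Without LPS-treated arrays lettered a, 3 genes were higher and 3 lower under LPS alone, and 85 interactions were higher. With 1 array left out, 292 to 714 genes were higher, 506 to 846 lower, and 1 to 3 lower under LPS alone. The interactions then numbered 34 to 123 higher and 101 to 210 lower. Of the 115 calls 89 held whichever array it was, and 47 held under every alternative but the 3 pairs. Median centring, zeros as missing, the filter on zeros, the choice of probe and scaling to 1 spread kept the counts within 1.5 times. Quantile normalization turned Tnf to -0.30 and Il1b to -0.26. Without LPS-treated arrays lettered a, Cxcl1 was 0.24, Cxcl2 0.32 and Cxcl3 0.27, and with 1 array left out they ranged from -0.20 to 0.12, from -0.72 to 0.12 and from -1.26 to 0.092. The causes of these shifts were not tested. Values near background have no stated limit in the table, so low genes with listed zeros are the least certain.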
